A study of Mus musculus with 6 samples.

Results

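The SIBLING genes (small integrin-binding ligand, N-linked glycoproteins) encode the acidic phosphoproteins of bone and dentin matrix. The family has 5 members, *Ibsp*, *Spp1*, *Dmp1*, *Mepe* and *Dspp*, which were taken by gene symbol from count tables of 44556 genes. All 5 were listed, and 4 passed the filter on low counts and were tested. The libraries came from parietal bone of newborn C57BL/6 littermates, 3 labelled OsxCre and 3 labelled OsxCre;Stat3fl/fl. Both groups carry the Cre transgene under the Osx (*Sp7*) promoter, which acts mainly in osteoblast precursors, and the second group also carries floxed alleles of *Stat3*, from which Cre removes a few exons. Whole bone was used, so the cells in which Cre is not active were measured together with the osteoblast lineage. The study deposited RNA counts to ask how loss of *Stat3* from osteoblasts changes gene expression, and here the comparison is restricted to the SIBLING genes and the genes that act with them.

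SIBLING proteins are secreted by cells that make mineralized tissue, are phosphorylated in the secretory pathway, and bind both hydroxyapatite and cell-surface integrins through an Arg-Gly-Asp motif. BSP (*Ibsp*) is bound to collagen and nucleates mineral, whereas phosphorylated osteopontin (*Spp1*) and acidic peptides released from MEPE restrain crystal growth. DMP1 is made mainly by osteocytes and DSPP mainly by the odontoblasts of teeth. *Ibsp* is a marker of maturing osteoblasts, while *Spp1* is also transcribed by osteoclasts and macrophages.

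The 5 genes lie in 1 cluster on chromosome 5, which spans 270.4 kb from *Dspp* to *Spp1* (chr5:104170703-104441053, RefSeq annotation of GRCm38.p6). Their order is *Dspp*, *Dmp1*, *Ibsp*, *Mepe* and *Spp1*. The 250 bases before the annotated start of each tested gene are shown as the sequence next to the genes whose counts are compared. Each is given 5′ to 3′ on the plus strand from the RefSeq promoter table of GRCm38.p6, with motif matches in capitals. The windows are chr5:104299037-104299286 for *Ibsp*, chr5:104434861-104435110 for the first of 2 starts of *Spp1*, chr5:104202367-104202616 for the second of 2 starts of *Dmp1*, and chr5:104325079-104325328 for *Mepe*.
Ibsp: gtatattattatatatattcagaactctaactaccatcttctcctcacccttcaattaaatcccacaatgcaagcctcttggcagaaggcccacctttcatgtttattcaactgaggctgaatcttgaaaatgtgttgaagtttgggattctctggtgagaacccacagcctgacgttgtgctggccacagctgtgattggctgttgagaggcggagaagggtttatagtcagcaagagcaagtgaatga
Spp1: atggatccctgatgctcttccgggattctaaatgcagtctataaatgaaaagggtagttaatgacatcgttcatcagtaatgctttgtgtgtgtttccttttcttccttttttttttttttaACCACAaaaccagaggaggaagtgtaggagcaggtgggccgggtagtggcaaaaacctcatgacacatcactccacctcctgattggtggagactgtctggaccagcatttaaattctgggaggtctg
Dmp1: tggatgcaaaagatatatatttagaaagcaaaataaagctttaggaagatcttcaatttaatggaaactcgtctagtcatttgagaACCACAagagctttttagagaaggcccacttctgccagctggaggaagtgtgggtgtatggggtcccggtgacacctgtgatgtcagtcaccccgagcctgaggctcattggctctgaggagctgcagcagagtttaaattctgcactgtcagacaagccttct
Mepe: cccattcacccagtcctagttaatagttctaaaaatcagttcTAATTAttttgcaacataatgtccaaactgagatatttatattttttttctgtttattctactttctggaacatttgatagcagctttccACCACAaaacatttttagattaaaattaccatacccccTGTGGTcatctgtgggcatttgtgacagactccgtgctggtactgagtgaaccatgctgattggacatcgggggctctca

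The motifs searched on both strands were TTCNNNGAA (STAT factors), TGTGGT or its complement ACCACA (RUNX factors) and TAATTA (homeodomain factors). No window of a member held TTCNNNGAA, which occurred in 7.02% of 32851 windows of the same length. The RUNX motif occurred 1 time before *Spp1*, 1 time before the second start of *Dmp1* and 2 times before *Mepe*, beside 14.0% of all windows with at least 1 match. TAATTA occurred 1 time before *Mepe* and 1 time before the second start of *Spp1* (not shown), beside 4.84% of all windows. None of the 3 motifs was found before *Ibsp* or before the first start of *Dmp1*, and no matches overlapped. A match or its absence in these bases says nothing about where a factor is bound.

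The libraries held 8193651 to 12080044 counts on genes, and every library labelled OsxCre;Stat3fl/fl was smaller than every OsxCre library. Counts are therefore given as counts per 1000000 counts of a library after TMM scaling (CPM), and the 2 genotypes were compared across 15600 genes with edgeR's quasi-likelihood test. *Stat3* itself had 150, 135 and 141 CPM in the OsxCre libraries and 153, 155 and 155 CPM in those labelled OsxCre;Stat3fl/fl. The log2 fold change of *Stat3* was 0.12 (standard error 0.07, adjusted p = 0.442), so its count was not lower under the deletion label. The floxed exons are a small part of the gene and the tables give 1 count per gene, which makes this a weak check of the labels. The labels do not give the sex and the study describes male newborns, but *Xist* had 7333 to 12392 counts in all 6 libraries and 4 Y-linked genes had 0 or 1 count. The study's methods give 3 littermate mice of each genotype, but the labels do not tie each library to 1 animal, so p-values measure the spread between these libraries.

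The tissue label was checked against markers. *Col1a1*, the main collagen of bone, had between 9902 and 15152 CPM, and summed over 9 osteoblast markers the level was 23591 to 31415 CPM in OsxCre and 20772 to 26430 CPM in the other group. Of the 9, none passed an adjusted p of 0.05 in edgeR, DESeq2 called 3, and 3 were lower at an unadjusted p under 0.05. Of all genes tested, 8.34% were lower and 8.03% higher at that unadjusted threshold, which is the comparison for each list here. Among the 6 osteocyte markers tested, edgeR and DESeq2 called 0 at an adjusted p under 0.05. At an unadjusted p under 0.05, 2 were lower, among them the osteocyte gene *Sost* (log2 fold change -1.03, adjusted p = 0.166 in edgeR). *Sost* had 5.52, 7.34 and 5.79 CPM in OsxCre and 1.68, 3.68 and 3.74 CPM in the other group. Skeletal muscle RNA was present, and the sum of 10 muscle markers was 31637 to 35926 CPM in OsxCre and 37825 to 55649 CPM in the libraries labelled OsxCre;Stat3fl/fl. Of the 10, 6 were higher and 1 lower at an unadjusted p under 0.05 (median log2 fold change 0.52). At an adjusted p under 0.05 edgeR called 2 and DESeq2 called 7. In edgeR *Myh3* rose (log2 fold change 1.72, adjusted p = 0.0204) and *Myh4* fell by 3.61 on the log2 scale (adjusted p = 3.87e-05). Erythroid markers summed to 5774 to 8032 CPM in OsxCre and to 2834 to 5163 CPM in the other group. Of 5 tested, 0 passed an adjusted p of 0.05 in edgeR, DESeq2 called 1, and 2 were lower at an unadjusted p under 0.05. *Hbb-b1* was at 0 throughout, while *Hbb-bs*, the other β-globin entry of this list, had 1661 to 4255 CPM. Macrophage markers summed to 577 to 608 CPM and 661 to 689 CPM, and of 11 tested 1, *C1qb*, rose (0.50, adjusted p = 0.0253). With 1 library left out the adjusted p of *C1qb* was 0.065 to 0.104 in all 6 cases, and that of *Myh3* was 0.0565 to 0.0967 without OsxCre replicate 1 or 2 or without OsxCre;Stat3fl/fl replicate 1 or 3. The part of these cell types in the results for the SIBLING genes was not tested.

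*Ibsp* was the member that passed the test between the genotypes. It had 1017, 1060 and 932 CPM in OsxCre and 610, 663 and 627 CPM in the libraries labelled OsxCre;Stat3fl/fl (10685, 10696 and 11105 against 5082, 5412 and 5359 counts). The highest library of the labelled group was thus well below the lowest OsxCre library, and within each group the values lay close together. The log2 fold change was -0.66 (standard error 0.09, 95% interval -0.88 to -0.45), so that the level fell by 36.8% (adjusted p = 0.0213, edgeR's quasi-likelihood test). In an exact permutation test of the 6 CPM values alone the p was 0.1, the smallest that 3 against 3 libraries allow. In bulk tissue, fewer cells of a type and less RNA per cell cannot be told apart.

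*Ibsp* was 1 of 75 genes called lower at an adjusted p under 0.05, which is 0.481% of the genes tested (1.26% in either direction), and by mean CPM it was the most abundant of the 75. Its adjusted p was below 0.05 under the other scalings, without the filter, with DESeq2 and with limma-voom. It was above 0.05 when 1 library was left out in 4 of 6 cases, namely 0.0967 without OsxCre replicate 1, 0.0927 without OsxCre replicate 2, 0.0777 without OsxCre;Stat3fl/fl replicate 1 and 0.105 without OsxCre;Stat3fl/fl replicate 3. The fold change itself moved little, from -0.71 to -0.62 over the 6 cases.

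*Spp1*, the most abundant member, did not pass the test. It had 2452, 1748 and 2320 CPM in OsxCre and 2316, 1690 and 2994 CPM in the libraries labelled OsxCre;Stat3fl/fl. The groups overlapped, and replicate 2 was the lowest in both. The log2 fold change was 0.10 (standard error 0.22, 95% interval -0.40 to 0.61, adjusted p = 0.87), so the interval includes a decrease to 0.756 times and an increase to 1.53 times the OsxCre level. The sign turned without scaling of the libraries (-0.28), without OsxCre replicate 2 (-0.034) and without OsxCre;Stat3fl/fl replicate 3 (-0.12).

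*Dmp1*, the osteocyte member, had 153, 74.2 and 130 CPM in OsxCre and 97.4, 86.5 and 130 CPM in the libraries labelled OsxCre;Stat3fl/fl. Here, too, replicate 2 was the lowest of each group and the groups overlapped. The log2 fold change was -0.18 (standard error 0.26, 95% interval -0.79 to 0.42, adjusted p = 0.786). It was 0.043 without OsxCre replicate 1 and -0.44 without OsxCre replicate 2, where the unadjusted p was 0.041 in edgeR.

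*Mepe* was measured with few reads, 84, 39 and 123 counts in OsxCre and 53, 40 and 59 counts in the libraries labelled OsxCre;Stat3fl/fl, or 7.99, 3.87 and 10.3 CPM against 6.36, 4.90 and 6.90 CPM. The labelled libraries lay inside the range of the OsxCre libraries. The log2 fold change was -0.29 (standard error 0.35, 95% interval -1.09 to 0.51, adjusted p = 0.74), and it was 0.027 without OsxCre replicate 3 and -0.60 without OsxCre replicate 2, with an unadjusted p of 0.0377 in edgeR in the latter case. *Dspp* had 0 counts in all 6 libraries, which with a floor of 3 counts per library allows a level of up to 0.252 CPM in the deepest and 0.368 CPM in the shallowest scaled library. No fold change can be given for it.

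**Figure D1:**
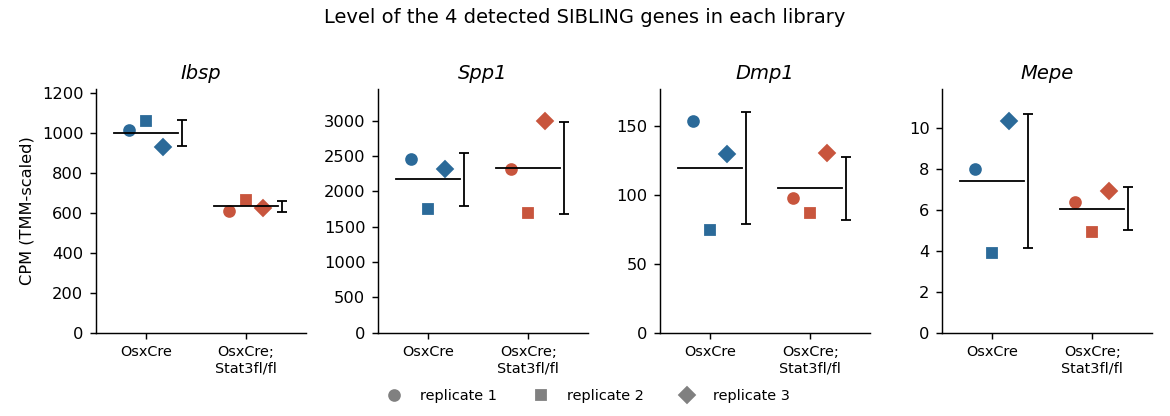
Each point is the CPM (TMM-scaled) of 1 library, for OsxCre in blue and OsxCre;Stat3fl/fl in red, with the marker shape giving the replicate number, a line at the group mean and a bar of ± 1 SD (n = 3). *Ibsp* lies at 932 to 1060 CPM in OsxCre and at 610 to 663 CPM in the other group, while for *Spp1*, *Dmp1* and *Mepe* the groups overlap.

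Counted over the family, 1 of 4 tested members was lower at an adjusted p under 0.05, where 0.481% of all genes tested were lower. At an unadjusted p under 0.05 it was also 1 of 4, where 8.34% of all genes tested were lower. None was higher at an unadjusted p under 0.05, where 8.03% of all genes were, and DESeq2 and limma-voom called none higher either. The libraries did not overlap for 1 of 4 members, beside 12.2% of all genes tested that were lower without overlap. The median log2 fold change of the 4 tested members was -0.24, and that of all genes tested was -0.0037. *Ibsp* sets all 3 counts with all 6 libraries, and the other members' intervals include 0. Without OsxCre replicate 2, 3 of 4 members were lower at an unadjusted p under 0.05. At an adjusted p under 0.05, 0 were lower without OsxCre replicate 1 or 2 or without OsxCre;Stat3fl/fl replicate 1 or 3. The intervals of *Dmp1* and *Mepe* include the log2 fold change of *Ibsp* (-0.66), so these data do not show that the 3 responded differently.

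**Figure D2:**
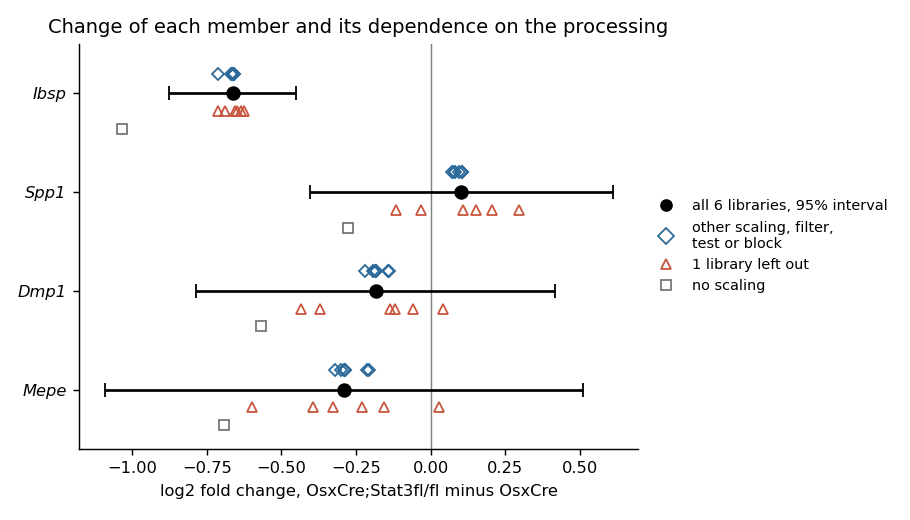
The horizontal axis is the log2 fold change of OsxCre;Stat3fl/fl minus OsxCre for each tested member, with the fit on all 6 libraries as a filled circle and its 95% interval, and open symbols for other settings. For *Ibsp* the fits with 1 library left out lie between -0.71 and -0.62, whereas for *Spp1*, *Dmp1* and *Mepe* they lie on both sides of 0.

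The members also differed in how much they varied between libraries of 1 genotype. The coefficient of variation of *Ibsp* was 6.5% in OsxCre and 4.3% in the libraries labelled OsxCre;Stat3fl/fl. It was 17.2% and 27.9% for *Spp1*, 34.1% and 21.7% for *Dmp1*, and 44.2% and 17.1% for *Mepe*. The standard error of *Dmp1* was larger than that of 98.1% of the 3163 genes within a factor of 2 of its level, and that of *Spp1* was larger than in 95.6% of 45 such genes. For *Mepe* the share was 86.6% of 3639 genes and for *Ibsp* 26.5% of 204 genes. The 3 variable members thus varied more than most genes of similar abundance, and *Ibsp* did not.

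*Spp1*, *Dmp1* and *Mepe* varied in the same direction. All 3 were lowest in replicate 2 of both genotypes, a pattern that 8.07% of the 15600 genes tested showed. That share is for single genes, and the pattern was picked after it had been seen. Libraries of the 2 genotypes share only the replicate number, and *Mepe* had just 53, 40 and 59 counts in those labelled OsxCre;Stat3fl/fl. Relative to the mean of the 3 OsxCre libraries, replicate 2 deviated by -0.30 (*Spp1*), -0.62 (*Dmp1*) and -0.82 (*Mepe*) on the log2 scale, against 0.08 for *Ibsp*. In the libraries labelled OsxCre;Stat3fl/fl the deviations of replicate 2 were -0.43, -0.25 and -0.29, against 0.07 for *Ibsp*. Likeness was measured as the root mean square difference of log2(CPM + 1) profiles, each centred on its own mean over the 6 libraries. It was smallest for *Dmp1* and *Mepe* (0.19), then *Spp1* and *Dmp1* (0.22) and *Spp1* and *Mepe* (0.29), and 0.48 to 0.50 for the 3 pairs with *Ibsp*.

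Of 12 osteoclast markers, 10 were also lowest in replicate 2 of both genotypes, a count made after the pattern had been seen. *Ctsk*, the collagenase cathepsin K, had 1022, 905 and 1038 CPM in OsxCre and 1100, 866 and 1111 CPM in the libraries labelled OsxCre;Stat3fl/fl. The gelatinase gene *Mmp9* had 815, 718 and 881 CPM and 821, 606 and 881 CPM, and *Acp5*, which encodes the tartrate-resistant acid phosphatase that dephosphorylates osteopontin, had 610, 559 and 614 CPM and 544, 417 and 612 CPM. Summed over the 12 markers the level was 2953, 2623 and 3029 CPM and 3041, 2375 and 3158 CPM. Between genotypes 0 of the 12 passed an adjusted p of 0.05 in edgeR, while DESeq2 and limma-voom each called 1. At an unadjusted p under 0.05 in edgeR, 2 were higher and 0 lower, beside 8.03% and 8.34% of all genes tested. None of the 9 osteoblast markers was lowest in replicate 2 of both genotypes. In OsxCre replicate 2 the osteoblast sum was nevertheless low as well, with a log2 deviation of -0.21 against -0.13 for the osteoclast sum. The 2 sums parted in OsxCre;Stat3fl/fl replicate 2, with 0.12 for the osteoblast and -0.26 for the osteoclast markers. The part of osteoclast RNA in the spread of the 3 members was not tested.

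**Figure D3:**
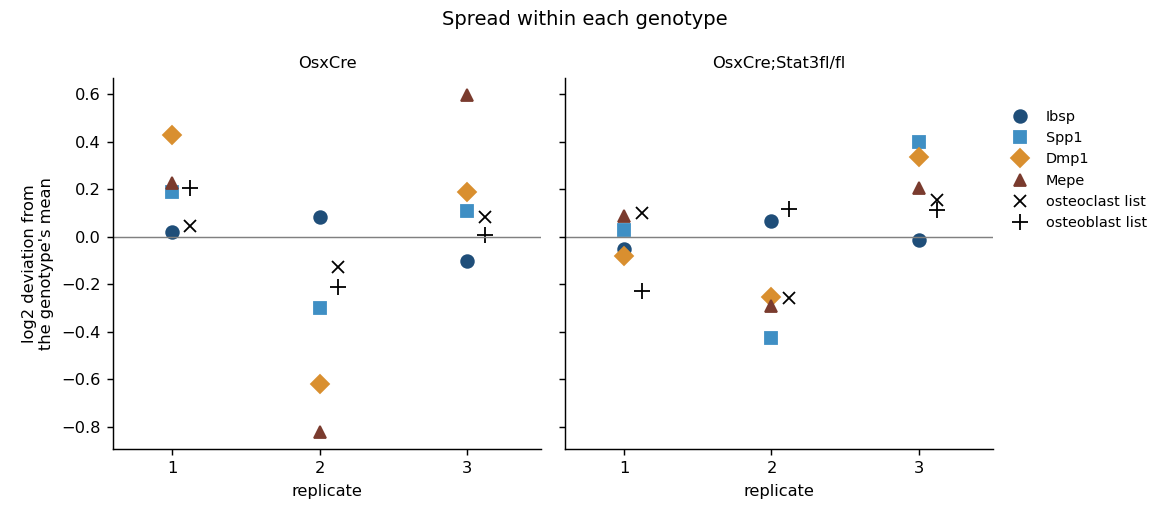
For each library the vertical axis gives the deviation on the log2 scale from the mean of its genotype, for the 4 members and for the summed CPM of the osteoclast and osteoblast marker lists, with OsxCre on the left and OsxCre;Stat3fl/fl on the right. *Spp1*, *Dmp1*, *Mepe* and the osteoclast list are below 0 in replicate 2 on both sides, and *Ibsp* stays between -0.10 and 0.08. The osteoblast list is below 0 in replicate 2 of OsxCre and above 0 in replicate 2 of OsxCre;Stat3fl/fl.

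By the same measure of likeness, over 6 libraries and among genes with a mean of at least 20 CPM, the genes nearest to *Ibsp* were *AI597468* (0.051), *Creld2* (0.059) and *Hn1l* (0.072). *Creld2*, an endoplasmic reticulum protein, had a mean of 40.7 CPM in OsxCre and 25.6 CPM in the other group. The profiles span both genotypes, so genes picked as nearest to *Ibsp* share its difference between them through the selection. Nearest to *Spp1* were *Gjb2* (0.098), *Cp* (0.11) and *Pcdh7* (0.11), which encode connexin 26, ceruloplasmin and a protocadherin. Among those nearest to *Dmp1* were *Nos3* (0.17) and *Col4a5* (0.17), and nearest to *Mepe* were *C1qtnf9* (0.18), *Dmp1* (0.19) and *Cldn5* (0.21). *Dmp1* was thus the second nearest of 8104 genes to *Mepe*.

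Levels of different genes were compared per kilobase of the longest annotated transcript. In OsxCre, *Spp1* had 1442 ± 248 CPM per kb (SD, n = 3), *Ibsp* 485 ± 31.6, *Dmp1* 43.1 ± 14.7 and *Mepe* 4.40 ± 1.94 CPM per kb. In the libraries labelled OsxCre;Stat3fl/fl the per-kilobase levels were 1548 ± 433 for *Spp1*, 306 ± 13.2 for *Ibsp*, 37.9 ± 8.24 for *Dmp1* and 3.60 ± 0.614 for *Mepe*. The order *Spp1*, *Ibsp*, *Dmp1*, *Mepe* and *Dspp* held in all 6 libraries, and no neighbours in it overlapped. The lowest *Spp1* library had 1121 CPM per kb against 513 for the highest *Ibsp* library. The lowest *Ibsp* library had 295 against 55.4 for the highest *Dmp1* library, and the lowest *Dmp1* library 26.8 against 6.14 for the highest *Mepe* library.

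Together the family took 0.301% to 0.368% of all counts in OsxCre and 0.227% to 0.376% in the libraries labelled OsxCre;Stat3fl/fl. Within that sum, *Ibsp* made up 28.0%, 36.7% and 27.5% of the family's counts in OsxCre and 20.1%, 27.1% and 16.7% in the other group. *Spp1* made up 67.5%, 60.6% and 68.4%, and 76.4%, 69.1% and 79.7%. For both genes the shares did not overlap between the genotypes, *Ibsp* being lower and *Spp1* higher in the libraries labelled OsxCre;Stat3fl/fl. Since the 2 shares add up to nearly the whole, they are not separate results.

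**Figure D4:**
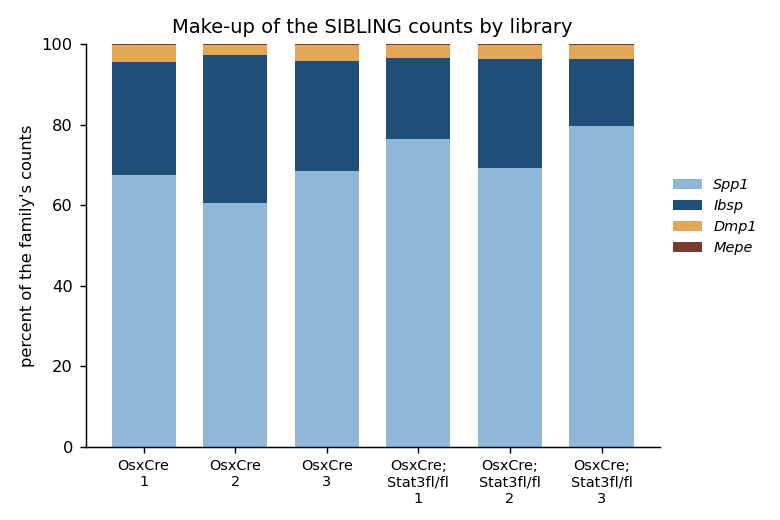
Bars show for each library the percent of the SIBLING counts taken by *Spp1*, *Ibsp*, *Dmp1* and *Mepe*, not corrected for transcript length. *Ibsp* takes 27.5% to 36.7% in the OsxCre libraries and 16.7% to 27.1% in those labelled OsxCre;Stat3fl/fl.

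Ratios of counts within a library do not depend on how libraries are scaled. *Ibsp* over *Spp1* was 0.415, 0.607 and 0.402 in OsxCre and 0.263, 0.393 and 0.209 in the libraries labelled OsxCre;Stat3fl/fl. The groups did not overlap, although the lowest OsxCre value and the highest of the other group were close. The difference of the log2 ratios was -0.74 (exact permutation test, two-sided, p = 0.1, the smallest possible, and 0.5 adjusted over 10 ratios). *Ibsp* over the sum of *Col1a1* and *Col1a2* was 0.0331, 0.0463 and 0.0348 in OsxCre and 0.0301, 0.0256 and 0.0243 in the other group, also without overlap, with a log2 difference of -0.50 (exact permutation p = 0.1, adjusted 0.5). The collagens themselves had log2 fold changes of -0.14 (*Col1a1*, adjusted p = 0.75) and -0.18 (*Col1a2*, adjusted p = 0.621) in edgeR's test. The other 8 ratios overlapped between the genotypes, with log2 differences from -0.52 for *Ibsp* over *Dmp1* to 0.27 for *Spp1* over *Mepe*.

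The genes around the family were grouped into 6 lists, which together hold 63 genes besides the members. Of 52 tested, none passed an adjusted p of 0.05 in edgeR or limma-voom, and DESeq2 called 6. At an unadjusted p under 0.05, 10 were lower and 7 were higher (8.34% and 8.03% of all genes), and the median log2 fold change was -0.097. Without OsxCre replicate 1 the lower genes numbered 6, without OsxCre replicate 2 the higher genes numbered 4, and without scaling 30 were lower and 0 higher in edgeR.

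Among 11 transcription factors and receptors that regulate SIBLING genes, 5 were lower and 0 higher at an unadjusted p under 0.05 in edgeR, beside 8.34% and 8.03% of all genes, and the median log2 fold change was -0.32. *Cbfb*, the partner of RUNX proteins, had -0.29 (adjusted p = 0.108), *Pth1r*, the parathyroid hormone receptor, -0.33 (adjusted p = 0.176), *Vdr*, the vitamin D receptor, -0.38 (adjusted p = 0.282) and the homeobox gene *Dlx3* -0.49 (adjusted p = 0.28). *Runx2* had -0.19 (adjusted p = 0.427) and *Sp7* -0.32 (adjusted p = 0.361). *Atf4*, the most counted of this list, had 280 ± 10.8 CPM in OsxCre and 288 ± 4.21 CPM (SD, n = 3) in the other group. None of the 11 passed an adjusted p of 0.05 in edgeR, and DESeq2 called 1. *Cbfb*, *Vdr*, *Dlx3*, *Runx2* and *Sp7* are named here after their values were seen, as are *Sost* and *Hbb-b1* above and *Bmp1*, *Mmp13*, *Tgm2*, *F13a1*, *Fam20c*, *Itgb6*, *Itgav*, *Itgb3*, *Fgf23*, *Enam* and *Amtn* in the lists that follow.

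Of 16 tested genes whose products phosphorylate, dephosphorylate, cleave or cross-link SIBLING proteins, 3 were lower and 2 higher at an unadjusted p under 0.05 (median -0.15). *Alpl*, the tissue-nonspecific alkaline phosphatase, had 278, 323 and 248 CPM in OsxCre and 199, 189 and 194 CPM in the libraries labelled OsxCre;Stat3fl/fl (log2 fold change -0.54, adjusted p = 0.0578 in edgeR). With 1 library left out the adjusted p of *Alpl* was 0.0429 without OsxCre replicate 3 and 0.127 to 0.192 in the other cases. It was 0.187 with the replicate number as a block and 0.0589 with limma-voom. *Bmp1*, a protease that cleaves DMP1 and DSPP, had -0.33 (adjusted p = 0.167). *Mmp13*, a collagenase, had -0.58 (standard error 0.26, adjusted p = 0.326). The transglutaminases *Tgm2* (0.32, adjusted p = 0.169) and *F13a1* (0.39, adjusted p = 0.121) had higher values. With DESeq2 the adjusted p was 0.000278 for *Alpl*, 0.0476 for *Bmp1* and 0.0406 for *F13a1*, and without the filter that of *Alpl* was 0.0129 in edgeR. *Fam20c*, the kinase that phosphorylates the family, had 53.9 ± 3.39 and 60.1 ± 11.9 CPM (SD, n = 3). *Ctsb*, a lysosomal protease, had 644 ± 10.4 and 703 ± 8.15 CPM.

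Of 12 integrin subunits and other binding partners, 1 was lower and 3 were higher at an unadjusted p under 0.05 (median 0.13). *Itgb6* differed by -1.04 on the log2 scale (adjusted p = 0.0748, standard error 0.22) and *Itgb3*, the β subunit of the osteoclast vitronectin receptor, 0.31 (adjusted p = 0.229). For *Itgb6* the adjusted p was 0.00191 with DESeq2, 0.0127 without the filter, 0.0483 with library totals and 0.00956 without scaling. *Itgb6* did not pass 0.05 in limma-voom (0.0634), with upper quartile scaling (0.0637) or with DESeq2 size factors (0.0724). Nor did *Itgb6* pass when replicate number was blocked (0.224) or when any 1 library was left out (0.0608 to 0.207). *Itgav*, its α partner, was counted at 1.69 to 5.96 CPM with a log2 fold change of 1.00 (adjusted p = 0.152). The most counted were *Itgb1* (638 ± 47.8 and 694 ± 37.2 CPM), *Itgb5* (186 ± 13.2 and 186 ± 4.99 CPM) and the osteopontin receptor *Cd44* (136 ± 20.5 and 150 ± 9.84 CPM).

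Of 7 tested genes of phosphate handling, 1 was lower and 0 higher at an unadjusted p under 0.05 (median -0.25). This was *Phospho1*, the phosphatase of matrix vesicles, which differed by -0.58 on the log2 scale (standard error 0.17, adjusted p = 0.159 in edgeR and 0.0255 with DESeq2). *Phex*, the endopeptidase whose loss resembles that of DMP1, had 48.4 ± 11.0 and 40.7 ± 7.81 CPM. The phosphate transporters *Slc20a1* (69.6 ± 0.396 and 64.4 ± 12.4 CPM) and *Slc20a2* (118 ± 8.26 and 124 ± 12.6 CPM) were the other abundant genes of the list. *Fgf23*, the hormone raised when DMP1 is absent, had only 7, 6 and 2 counts in OsxCre and 21, 7 and 7 counts in the other group. These are 0.168 to 0.666 CPM and 0.819 to 2.52 CPM. The gene did not pass the filter on low counts, so it was not tested and no change is read from these values.

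On chromosome 5, 5 neighbours of the cluster were tested. *Hsd17b11* had 46.9, 44.5 and 46.8 CPM in OsxCre and 55.0, 59.9 and 63.2 CPM in the libraries labelled OsxCre;Stat3fl/fl (log2 fold change 0.37, adjusted p = 0.0825). *Sparcl1*, a matricellular relative of the family, had 389, 278 and 322 CPM and 396, 410 and 523 CPM (0.43, adjusted p = 0.222). *Pkd2*, which follows *Spp1* along the chromosome, had 103 ± 8.14 and 97.9 ± 8.40 CPM (SD, n = 3). None of the 5 passed an adjusted p of 0.05 in edgeR, and at an unadjusted p under 0.05 0 were lower and 2 higher (median 0.37). A further list of 7 held other secretory calcium-binding phosphoprotein genes and their relatives *Sparc* and *Sparcl1*. Of these, 3 were tested, namely *Sparc*, *Sparcl1* and *Ambn*. None of the 3 passed an adjusted p of 0.05 in edgeR, and *Sparcl1* had an unadjusted p under 0.05. *Sparc*, or osteonectin, had 7733 ± 750 and 7193 ± 406 CPM (log2 fold change -0.10, adjusted p = 0.733), *Ambn* had 0.381 to 1.87 CPM, and *Enam* and *Amtn*, of tooth enamel, had 0 counts.

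**Figure D5:**
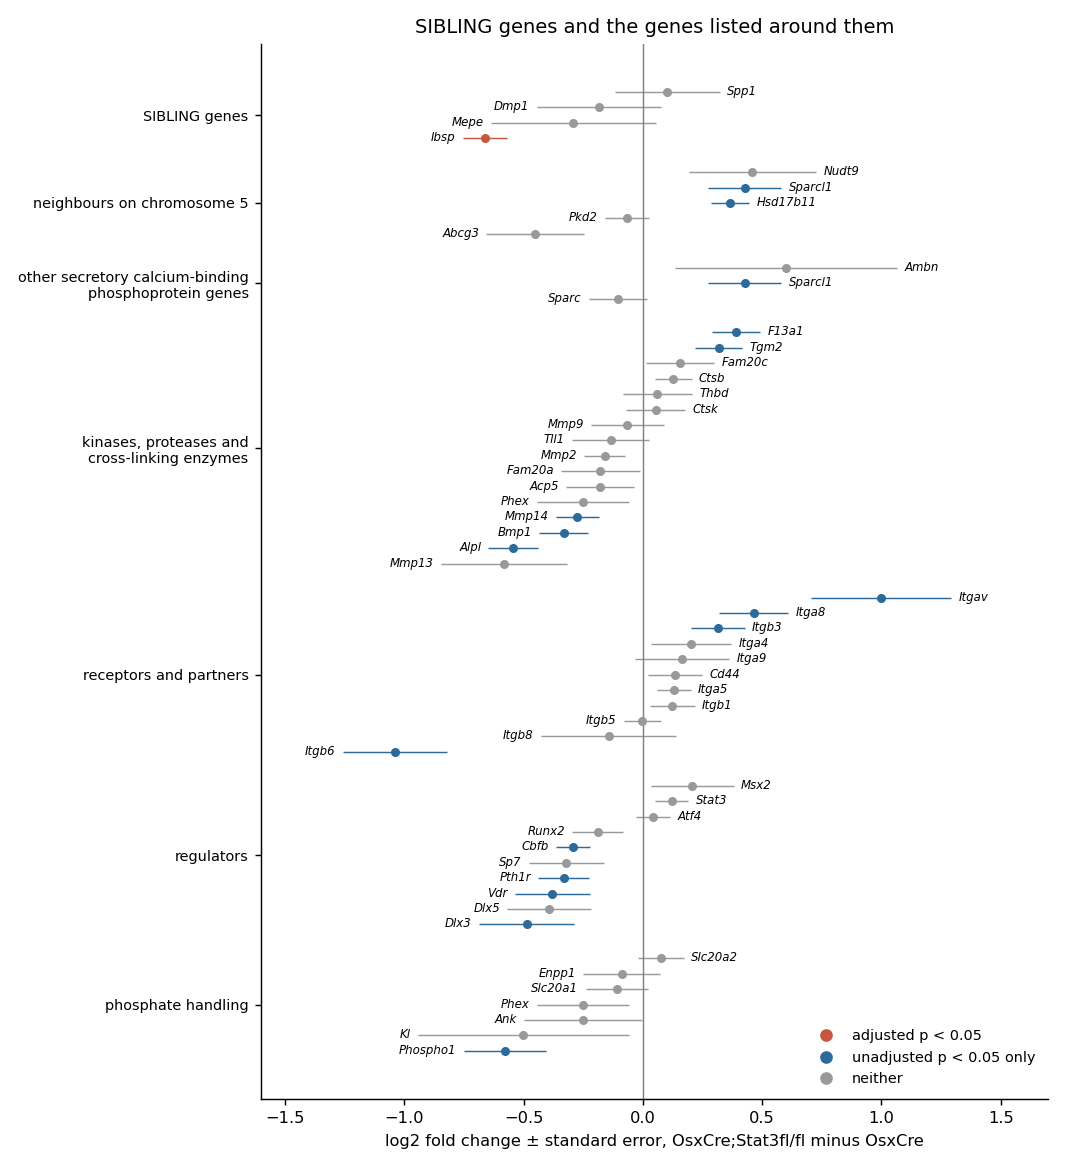
Points give the log2 fold change of OsxCre;Stat3fl/fl minus OsxCre with its standard error for the tested SIBLING genes and for tested genes of the 6 lists, in red where the adjusted p was under 0.05 and in blue where only the unadjusted p was. *Ibsp* is the only red point, at -0.66.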

How the data were processed

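RNA was extracted with Trizol from parietal bone, and libraries were made with the Illumina TruSeq RNA kit. The labels give polyA RNA and the study total RNA. The authors deposited, for each library, raw read counts per gene symbol. The submitters' processing notes name HISAT2 and GRCm38, whereas the study's methods describe TopHat on mm9. The counting program, annotation and strand setting are not given in the sources used here. RefSeq coordinates and promoters are of GRCm38.p6, and transcript lengths are from GENCODE on NCBIM37.

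The 2 genotypes were compared with edgeR 4.0.16 in R 4.3.3 (filterByExpr, minimum count 10 and minimum total 15, TMM, glmQLFit and glmQLFTest, two-sided, Benjamini-Hochberg over 15600 genes). Standard errors are the log2 fold change divided by the square root of F. DESeq2 1.42.0, limma-voom (limma 3.58.1), other scalings, no filter, the replicate number as a block and leaving out each library were alternatives. The TMM factors were 0.932 to 1.04. Within-library ratios were compared by exact permutation (scipy 1.17.1). Same-numbered libraries did not deviate together (correlations of -0.10, -0.53 and -0.069). No libraries of the same genotype were duplicates of each other (chi-square per degree of freedom 7.51 to 15.6 between pairs within a genotype). Pairs across genotypes were not compared in this way. The floor of 3 counts covers counting error only.

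The members, gene lists and tests were chosen with earlier results of these data known. Genes named were the members, *Stat3*, genes of each list with an adjusted p under 0.05, the 3 most abundant of each list and the 3 with the profile most like each member; others are said to be chosen after their values were seen. The fits were tested on simulated counts. Some genes that this rule names, or that lists count, are not reported here. Amino acid sequences were not used here.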

Additional observations from a re-analysis of the deposited data

How the results depend on the processing

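*Ibsp* stayed lower in the libraries labelled OsxCre;Stat3fl/fl in all alternatives run, and its call was lost in 5 of them. The log2 fold change of *Ibsp* was -0.71 to -0.62 when 1 library was left out, with an adjusted p of 0.0399 to 0.105 in edgeR, so that 0 to 1 members were called lower. With the replicate number as a block (replicate block) the log2 fold change was -0.66, the adjusted p was 0.122 and 0 members were called, and over all genes the block lowered the calls from 75 lower and 121 higher to 1 lower and 0 higher. The libraries share only a number, and the block moved the other members little. Leaving out 1 library gave -0.12 to 0.30 for *Spp1*, with -0.034 and -0.12 where the sign turned, -0.44 to 0.043 for *Dmp1* and -0.60 to 0.027 for *Mepe*. Without scaling the median of all genes moved to -0.38, so that *Spp1* had -0.28, *Stat3* -0.26, *Hsd17b11* -0.013, *Tgm2* -0.060 and *Itgb3* -0.063, each of which turned sign, and *Ibsp* had -1.04.

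In the 6 lists around the family, 2 genes passed an adjusted p of 0.05 with library totals, 23 without scaling, 3 without the filter, 6 with DESeq2 and 0 to 1 with a library left out. With 3 libraries per genotype, the exact permutation test of the within-library ratios cannot pass 0.05. Leaving out 1 library turned *Dmp1* over *Mepe* (-0.16 and -0.019, range -0.16 to 0.15), *Dmp1* over the collagens (-0.18, -0.059 and -0.096, range -0.18 to 0.20) and *Mepe* over the collagens (0.26 and 0.17), whose range was -0.33 to 0.26, and *Runx2* plus *Sp7* as reference turned the last (0.082). The ratios of *Ibsp* kept their sign, from -0.99 to -0.53 over *Spp1* and from -0.60 to -0.35 over the collagens. The cause of these changes was not tested. Using the union of exons as length moved no level by more than 1 SD. *Mepe* had 39 to 123 counts per library.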

Other observations

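Of 8 chondrocyte markers none passed an adjusted p of 0.05 in edgeR and 1 was higher at an unadjusted p under 0.05, and their sum was 2648 to 4057 CPM in OsxCre and 3460 to 4435 CPM in the libraries labelled OsxCre;Stat3fl/fl, most of it from *Col2a1*, *Col11a2* and *Acan*. *Col10a1*, the collagen of hypertrophic cartilage, was named after its values were seen and had 35.5 to 114 CPM in OsxCre and 50.1 to 84.8 CPM in the other group. Of 5 endothelial markers none passed an adjusted p of 0.05 in edgeR and 1 was higher at an unadjusted p under 0.05. Of all genes tested, 8.03% were higher at that threshold. The endothelial sums were 463 to 654 CPM in OsxCre and 565 to 668 CPM in the other group, led by *Pecam1*, *Cdh5* and *Kdr*. Keratinocyte markers (*Krt5*, *Krt14*, *Krt10* and, outside the rule for named genes, *Krt1*) summed to 3.36 to 5.71 CPM and 3.92 to 6.73 CPM, with 0 calls adjusted or unadjusted for the 1 tested.

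The summed level of the 5 neuronal markers varied between libraries of 1 genotype. Their sum was 114, 426 and 103 CPM in OsxCre and 337, 55.7 and 233 CPM in the libraries labelled OsxCre;Stat3fl/fl, and *Stmn2*, *Tubb3* and *Gap43* were the most counted. None was called by edgeR at an adjusted or an unadjusted p of 0.05. OsxCre replicate 2, which had the lowest *Spp1*, *Dmp1* and *Mepe* of its group, had the highest neuronal sum of its group, whereas OsxCre;Stat3fl/fl replicate 2 had the lowest of all 6 libraries.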
